A study of Mus musculus with 9 samples.

Results

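Glutathione peroxidases and their partner enzymes remove peroxides from cells, and 10 genes of this system, chosen by name, are described here out of the 55401 genes of the RNA-Seq tables. The 10 genes are the glutathione peroxidases *Gpx1*, *Gpx3*, *Gpx4* and *Gpx7*, the glutathione reductase *Gsr*, the thioredoxin *Txn1* with its reductase *Txnrd1*, the peroxiredoxins *Prdx1* and *Prdx2*, and the catalase *Cat*. They were put together around *Gpx3*, which had stood out as higher in the stably expanded group, so its values in the comparisons with that group are given without a test. Genes entered a comparison when the average of the 6 libraries reached a normalized count of 10, which held for 9 of the 10 in each comparison and for *Gpx7* in none.

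RNA-Seq was done on H9M cells, lineage-negative bone marrow cells of C57BL/6-Ly5.1 mice with a retroviral vector for *Meis1*, *Hoxa9* and puromycin resistance, labelled with color-coding FGB-D lentiviral vectors. All groups carried these vectors. Color-coded clones were pooled, given with helper bone marrow cells to lethally irradiated C57Bl6/J mice, and sorted by color code from thawed splenocytes within the cKit+CD11bdim gate. Mouse #15, killed 4 weeks after transplantation, gave the pre-malignant libraries, from 43BC-D, 38BC-D and 33BC-D. De novo expanded libraries came from the same clones at the endpoint (38BC-D of mouse #13, 43BC-D of mouse #14, 33BC-D of mouse #17), and 34BC-D, taken from each of these endpoint mice, made up the stably expanded libraries. A difference from the pre-malignant group cannot be told apart from a difference of its 1 mouse, and a difference of the stably expanded group cannot be told apart from a property of its 1 clone. Each group had 3 libraries, which are numbered here without a link to clone or mouse, and p-values measure the spread between these libraries.

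Libraries held between 10379739 and 15551196 reads on genes, and levels are given as CPM, the reads of a gene per 1000000 reads on genes. At this depth a count of 0 allows 3 reads, 0.193 to 0.289 CPM, for counting error only. The sort and design genes *Kit*, *Itgam*, *Ptprc*, *Cd34*, *Hoxa9* and *Meis1* had reads in every library. Of these, *Itgam*, which encodes CD11b, was higher in stably expanded than in pre-malignant libraries (log2 fold change 0.61, adjusted p = 0.0485, limma) and the progenitor marker *Cd34* was lower (-0.76, adjusted p = 0.0261). De novo expanded libraries had 27.8, 34.7 and 58.2 CPM of *Itgam*, against 58.0 to 85.7 CPM in stably expanded libraries. For *Cd34* they had 108, 164 and 46.6 CPM, against 54.9 to 82.6 CPM. Neutrophil granule genes stood apart in de novo expanded library 3, where 10 markers summed to 20678 CPM against 3090 and 4355 CPM in the other 2, and results that rest on this library are given with and without it.

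Glutathione peroxidases reduce hydrogen peroxide or lipid peroxides with electrons of glutathione, and glutathione reductase returns the oxidized glutathione to its reduced form at the cost of NADPH. Thioredoxin and thioredoxin reductase serve peroxiredoxins in the same way. Catalase splits hydrogen peroxide without a thiol. *Gpx1* encodes the abundant peroxidase of the cytosol, *Gpx4* the enzyme that reduces phospholipid hydroperoxides and guards against ferroptosis, *Gpx7* a peroxidase of the endoplasmic reticulum, and *Gpx3* the secreted peroxidase of plasma.

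*Gpx3* (ENSMUSG00000018339.11, chr11:54902453-54910377, plus strand, GRCm38.p6) is the gene around which the values below turn, so the 250 bases before its RefSeq start are shown. The gene interval in the files opens before that start. Windows of this kind came from RefSeq on GRCm38.p6 and matched 9 of the 10 genes with 14 starts. *Gsr* was not matched. Each was searched on both strands for the letters of a GC box (GGGCGG, in 32.7% of all 32851 windows), a CCAAT box (CCAAT, 33.8%), a TATA box (TATAAA, 12.4%), a CEBP motif (TTGCNNAA, 9.56%) and the core of the antioxidant response element (TGACNNNGC, 10.2%), the element bound by NRF2. In the *Gpx3* window, chr11:54902604-54902853 on the plus strand, capitals mark a GC box at position -49 and a CCAAT box, read on the other strand, at position -8, counted from -1 at the base before the start. The letters of the other 3 motifs are not in this window. The core of the antioxidant response element was found in a window of *Prdx1*, at position -133, and in 1 of 3 windows of *Txnrd1*, at position -92. Both are printed with 10 bases on each side (chr4:116685456-116685484 and chr10:82859104-82859132, plus strand), with the core, read on the other strand, in capitals. These matches describe the letters only.
Gpx3: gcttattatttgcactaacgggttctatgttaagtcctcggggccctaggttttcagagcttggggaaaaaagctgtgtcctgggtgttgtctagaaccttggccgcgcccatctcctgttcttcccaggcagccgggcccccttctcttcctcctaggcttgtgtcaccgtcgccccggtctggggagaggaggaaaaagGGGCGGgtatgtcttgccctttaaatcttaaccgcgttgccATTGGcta
Prdx1: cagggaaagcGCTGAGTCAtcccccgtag
Txnrd1: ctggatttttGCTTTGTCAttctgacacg

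*Gpx3* was nearly silent outside the stably expanded clone. The pre-malignant libraries had 0.379, 0.274 and 2.90 CPM, the de novo expanded libraries 0.250, 0.193 and 0.392 CPM, and the stably expanded libraries 39.9, 24.9 and 19.9 CPM. All 3 stably expanded libraries lay above all 6 others, and the lowest of them was 6.87 times the highest other library and 50.9 times the highest de novo expanded library. In reads, the stably expanded group held 1182 on *Gpx3*, the pre-malignant group 52 and the de novo expanded group 12. The summed level was 24.0 times that of the pre-malignant group, where library 3 alone held 43 of the 52 reads, and 105 times that of the de novo expanded group.

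In normalized counts, *Gpx3* reached 384 ± 144 (SD, n = 3) in the stably expanded group, and the pre-malignant group had 16.0 ± 20.1 (n = 3). The log2 fold change on the scale of log2(normalized count + 1) was 5.13 (6.10 without pre-malignant library 3), and 6.31 against 3.77 ± 1.43 (n = 3) in de novo expanded libraries. The added count of 1 lowers changes at low counts on this scale. For stably expanded over pre-malignant, however, the recovered reads gave smaller values than 5.13, which were 4.54 with edgeR and 4.58 with DESeq2. The third pair of groups did not choose the gene but shares libraries with the pairs that did, and there de novo expanded over pre-malignant gave a log2 fold change of -1.17 (SE 0.89, adjusted p = 0.642, limma). The recovered reads gave -2.05 with edgeR (adjusted p = 0.488) and -2.07 with DESeq2 (adjusted p = 0.981). The ranges of the 2 groups overlapped.

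**Figure D1:**
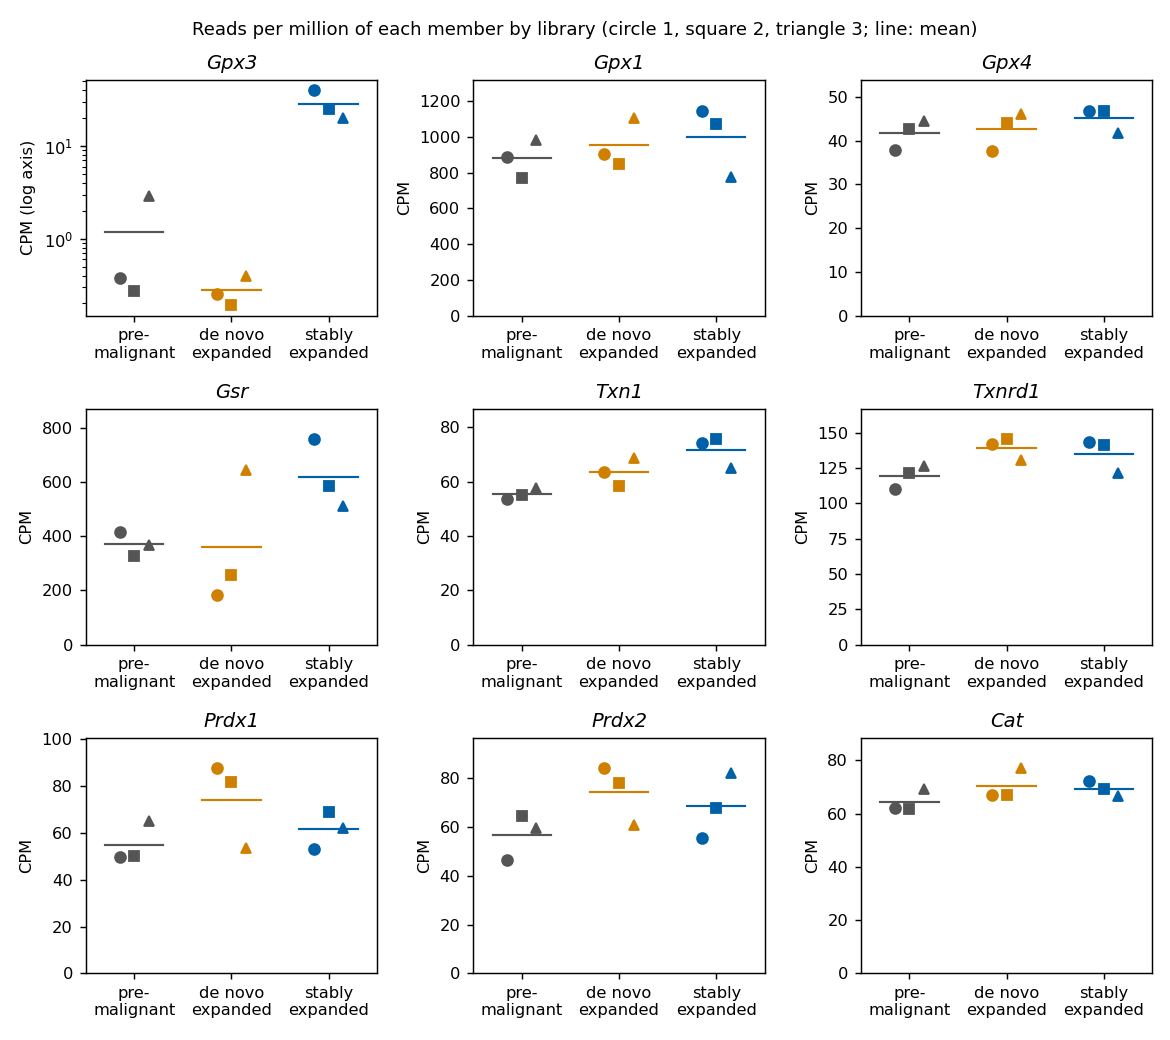
Level of each gene in CPM (vertical axis, on a log scale for *Gpx3* and from 0 for the others) in the 9 libraries, with 1 symbol per library and a line at the mean of each group. *Gpx3* lay between 19.9 and 39.9 CPM in stably expanded libraries and at 2.90 CPM or less elsewhere, *Gsr* was spread from 183 to 642 CPM in de novo expanded libraries, and *Gpx7* (5 reads in all) is left out.

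The other glutathione peroxidases did not share this pattern. *Gpx1* (ENSMUSG00000063856.7, chr9:108338903-108340343) had 887, 769 and 984 CPM in pre-malignant, 905, 848 and 1105 CPM in de novo expanded and 1149, 1073 and 774 CPM in stably expanded libraries. The 3 ranges overlapped. Its log2 fold change of stably expanded over pre-malignant was 0.17 (95% interval -0.15 to 0.49, adjusted p = 0.489). *Gpx4* (ENSMUSG00000075706.10, chr10:80047166-80056439) was even steadier, with 37.8, 42.7 and 44.5 CPM in pre-malignant, 37.7, 44.0 and 46.0 CPM in de novo expanded and 46.9, 46.9 and 41.8 CPM in stably expanded libraries. Its log2 fold change in the same comparison was 0.12 (-0.14 to 0.38, adjusted p = 0.552). The pseudogene *Gpx4-ps2*, which could share reads with it, had 12 to 37 reads per library. *Gpx7* (ENSMUSG00000028597.11, chr4:108400390-108406961) was read 3, 2 and 0 times in pre-malignant libraries and never in the other 6, which at this depth allows up to 0.289 CPM. The remaining family genes *Gpx2*, *Gpx5*, *Gpx6* and *Gpx8* also failed the filter in each comparison, with at most 0.753 CPM (*Gpx2*, pre-malignant library 2).

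Levels were compared between genes only per length, as CPM per kb of exon. *Gpx1* led in every group, at 611 ± 74.5 in pre-malignant, 661 ± 93.5 in de novo expanded and 693 ± 138 CPM per kb in stably expanded libraries (SD, n = 3). It made up 67.7%, 68.3% and 61.9% of the summed per-length level of the 10 genes. *Gsr* came next at 134 ± 16.3, 131 ± 89.6 and 224 ± 45.8 CPM per kb, and *Txn1* followed at 52.7 ± 1.87, 60.4 ± 5.06 and 68.1 ± 5.43 CPM per kb. These 3 did not overlap in any group. *Cat*, *Gpx4*, *Prdx2*, *Prdx1* and *Txnrd1* followed in this order in every group, from 26.9 down to 16.9 CPM per kb. Neighbours among them overlapped in every group, apart from *Gpx4* and *Prdx2* in pre-malignant libraries.

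*Gpx3* stood below these genes at 0.654 ± 0.822 CPM per kb in pre-malignant and 0.154 ± 0.0565 in de novo expanded libraries. In stably expanded libraries it stood at 15.6 ± 5.74 CPM per kb, a range that overlapped that of *Txnrd1* (19.1 ± 1.73). Within the glutathione peroxidases it stayed a minor part. Its share of their summed per-length level was 2.603%, 1.75% and 1.92% in the stably expanded libraries and between 0.0173% and 0.226% in the other 6.

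**Figure D2:**
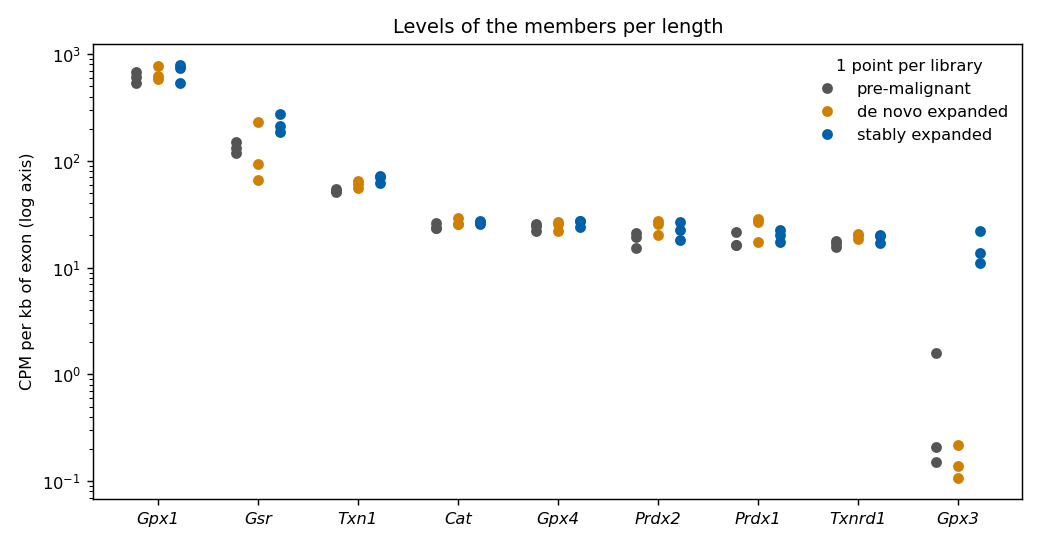
Levels per length of 9 of the 10 genes (vertical axis, CPM per kb of exon on a log scale), in the order of their mean over the libraries, with 1 point per library. *Gpx1* lay at 534 CPM per kb or more in all libraries, and *Gpx3* reached the range of *Txnrd1* in stably expanded libraries only.

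*Gsr*, which supplies reduced glutathione to the peroxidases, was the other gene that differed between stably expanded and pre-malignant libraries. *Gsr* (ENSMUSG00000031584.16, chr8:33652523-33698163) had 417, 327 and 366 CPM in pre-malignant, 183, 257 and 642 CPM in de novo expanded and 757, 583 and 511 CPM in stably expanded libraries. All stably expanded libraries were above all pre-malignant ones, while the de novo expanded libraries lay on both sides. Normalized counts averaged 8386 ± 1748 in the stably expanded and 5014 ± 666 in the pre-malignant group (SD, n = 3), a log2 fold change of 0.73 (SE 0.14, adjusted p = 0.0150, limma), or 1.66-fold. This passed the adjusted p-value but not the limit of 2-fold. It no longer passed without pre-malignant library 2 (0.64, adjusted p = 0.0767) or in 1 fit of all 9 libraries (0.73, adjusted p = 0.321). The small gene *Gm24727* lies within *Gsr* on the same strand, with 2751 reads against 57110 of *Gsr* in all libraries.

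Against de novo expanded libraries the *Gsr* difference turned on 1 library. The log2 fold change of stably over de novo expanded was 0.97 (95% interval -0.03 to 1.98, adjusted p = 0.891), and without de novo expanded library 3 it was 1.504 (adjusted p = 0.00290, 508 of 13756 genes or 3.69% called). De novo expanded over pre-malignant, the log2 fold change was -0.22 (-1.20 to 0.75, adjusted p = 0.872, limma), and without that library -0.76 (adjusted p = 0.0220, limma). The latter was under the 2-fold limit. In that fit 1.5% of all genes passed both limits, and the share passing the adjusted p-value alone was not counted. *Gsr* stood lower in de novo expanded libraries 1 and 2 than in all pre-malignant libraries, and higher in library 3 than in 2 of the 3 stably expanded libraries.

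Neutrophil granule genes, like *Gsr*, averaged higher in stably expanded libraries than in either other group. Among the de novo expanded libraries they kept the order of *Gsr*, apart from *Ltf* (7.59, 2.51 and 6.53 CPM). Of de novo expanded over pre-malignant they did not go together. The log2 fold change was -0.22 for *Gsr*, and the granule genes had a median of 0.30 with 6 of 10 higher, beside 51.0% of all genes. The 10 markers of this list (*Mpo*, *Elane*, *Prtn3*, *Ctsg*, *Ltf*, *Camp*, *Ngp*, *Lcn2*, *S100a8* and *S100a9*) had reads in every group and summed to 8190 to 9575 CPM in pre-malignant, 3090 to 20678 CPM in de novo expanded and 11820 to 17224 CPM in stably expanded libraries. In stably expanded over pre-malignant, all 10 were higher and 6 passed the adjusted p-value, beside 50.5% and 7.95% of all genes (median log2 fold change 2.13). Over de novo expanded, all 10 were higher, beside 49.6% of all genes, and none passed (median 2.00). In de novo expanded libraries 1, 2 and 3 the myeloperoxidase gene *Mpo* had 1637, 2658 and 15796 CPM, the same order of libraries as for *Gsr*. In the pre-malignant libraries *Mpo* had 6143, 7038 and 6772 CPM, the reverse of the order of *Gsr*. Not all granule genes did so, since *Lcn2* (15.8, 12.5 and 9.46 CPM), *S100a8* and *S100a9* were highest in library 1, as was *Gsr*. In stably expanded libraries *Mpo* had 8915, 7545 and 8158 CPM, which is not the order of *Gsr*. Across the 9 libraries the genes of the lists most like *Gsr*, on log2(CPM + 1), were *Prdx5* (Pearson r = 0.976), *Itgam* (0.972), *Msrb1* (0.958) and the neutrophil elastase gene *Elane* (0.955), while the 10 granule genes ran from 0.507 (*Ctsg*) and 0.535 (*Ltf*) up to that value, given as a description of libraries that share clones, mice and the sort. The part of granule gene expression in the *Gsr* result was not tested, and in sorted bulk samples a shift in the mix of cells and a change of RNA per cell cannot be told apart.

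*Gpx3* did not follow these markers in every library. De novo expanded library 3 exceeded all stably expanded libraries in *Mpo* (15796 against 7545 to 8915 CPM) and *Elane* (2148 against 1232 to 1736 CPM), and *Gpx3* had 0.392 CPM there. For *Ngp*, a gene of later granules, that library and stably expanded library 3 were nearly alike (353 and 360 CPM), with *Gpx3* at 0.392 and 19.9 CPM. Within the stably expanded group *Ngp* (2605, 1076 and 360 CPM) and *Gpx3* had the same order of libraries. Markers of B cells summed lower in the stably expanded group (85.5 to 107 CPM over 6 genes, against 221 to 270 CPM in pre-malignant libraries). De novo expanded libraries had 222, 164 and 73.6 CPM, with library 3 below all stably expanded libraries. Most of these sums was *Ighm* (68.0, 79.1 and 83.0 CPM in stably expanded against 209, 195 and 240 CPM in pre-malignant libraries). In stably expanded over pre-malignant, 3 of the 6 genes were lower and passed the adjusted p-value, beside 7.95% of all genes. *Cd79b* was higher (14.6, 9.73 and 17.8 against 6.91, 10.1 and 4.66 CPM). Of 6 markers of stroma and endothelium, *Pecam1*, which blood cells also express, was the 1 tested gene, lower in stably expanded (89.3, 146 and 130 CPM) than in pre-malignant libraries (231, 247 and 246 CPM) and past the adjusted p-value, and the other 5 had at most 1.23 CPM in any library. De novo expanded libraries had 189, 244 and 99.9 CPM of *Pecam1*, with library 3 within the stably expanded range. Erythroid markers summed to 24.9 to 56.1 CPM in pre-malignant, 3.33 to 20.3 CPM in de novo expanded and 4.82 to 32.7 CPM in stably expanded libraries, and those of macrophages to 89.8 to 197, 55.0 to 250 and 176 to 235 CPM. Most of the macrophage sums was *Adgre1* and *Vcam1*, and *Vcam1* ran from 1.17 to 167 CPM over the libraries. *C1qa*, *C1qb*, *C1qc*, *Mrc1* and *Cd5l* had at most 2.05 CPM in any library and averaged lower in the stably expanded than in the pre-malignant group. The part of these markers in the results was not tested. Summed T cell and platelet markers stayed at 3.04 CPM or less in all libraries.

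**Figure D3:**
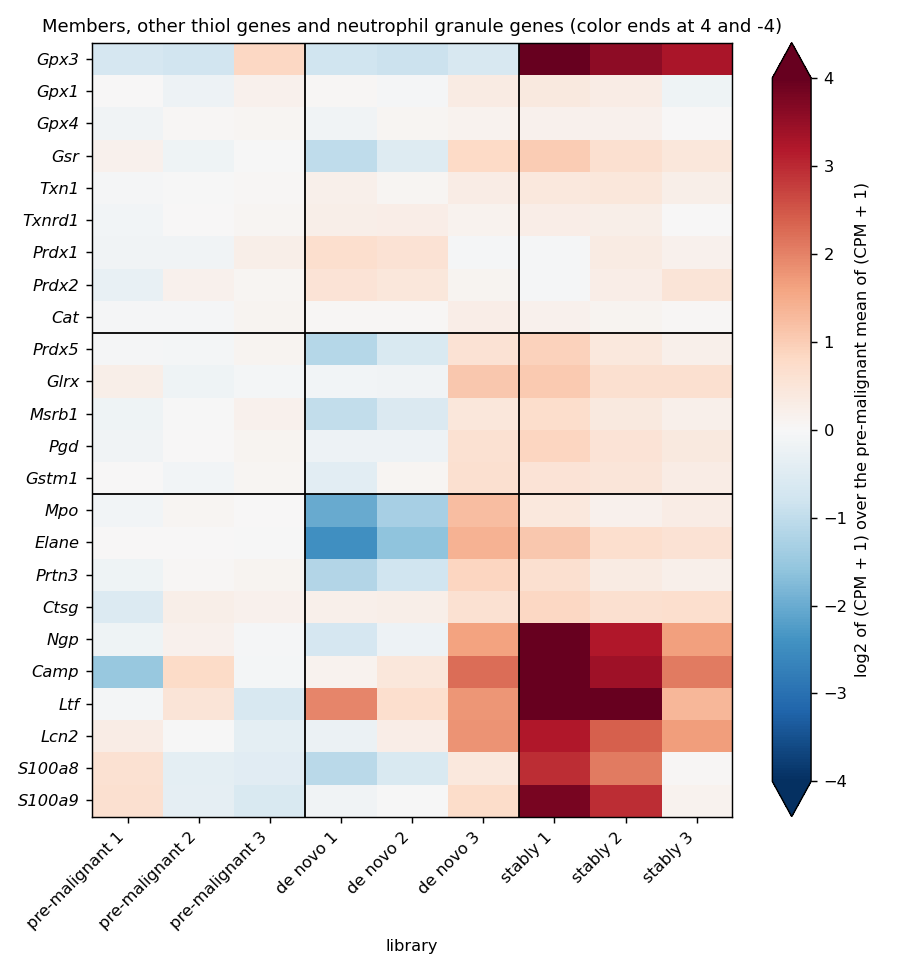
Colors give the log2 of (CPM + 1) in each library over the pre-malignant mean of (CPM + 1), for 9 of the 10 genes (top), 5 other thiol genes (middle) and the 10 neutrophil granule markers (bottom), with values beyond 4 shown as 4. De novo expanded library 3 is above the pre-malignant mean for *Gsr*, *Prdx5*, *Mpo* and *Elane* and below it for *Gpx3* (0.392 CPM). That mean of *Gpx3* rests on pre-malignant library 3 (2.90 CPM, against 0.379 and 0.274 CPM in libraries 1 and 2). *Gpx3* is dark red in the 3 stably expanded libraries.

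In the thioredoxin branch the differences were small. *Txn1* (ENSMUSG00000028367.5, chr4:57943373-57956411) had 53.7, 54.9 and 57.6 CPM in pre-malignant, 63.5, 58.2 and 68.8 CPM in de novo expanded and 74.2, 75.5 and 65.0 CPM in stably expanded libraries. Neither later group overlapped the pre-malignant one, while both overlapped each other. Of all genes, 30.7% did not overlap in stably expanded against pre-malignant libraries and 19.1% in de novo expanded against pre-malignant libraries. Its log2 fold change of stably expanded over pre-malignant was 0.37 (SE 0.10, adjusted p = 0.0544), which passed without stably expanded library 3 (adjusted p = 0.0434) and with the filter raised to 50 (0.0447). Over the other settings the adjusted p ran up to 0.157. Its pseudogene *Txn-ps1* had 0 to 4 reads per library.

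*Txnrd1* (ENSMUSG00000020250.10, chr10:82833951-82897712), whose selenoprotein reduces thioredoxin, had 110, 122 and 127 CPM in pre-malignant, 142, 145 and 131 CPM in de novo expanded and 143, 141 and 121 CPM in stably expanded libraries. Only the de novo expanded libraries lay wholly above the pre-malignant ones, with a log2 fold change of 0.24 (95% interval 0.02 to 0.46, adjusted p = 0.424, limma). *Eid3* lies within *Txnrd1* on the same strand and held 543 reads against 16588 of *Txnrd1* in all libraries.

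The peroxiredoxins, the abundant thiol peroxidases that thioredoxin reduces, were highest in de novo expanded library 1. *Prdx1* (ENSMUSG00000028691.12, chr4:116685544-116700822) had 49.8, 49.98 and 65.1 CPM in pre-malignant, 87.5, 81.7 and 53.3 CPM in de novo expanded and 53.2, 68.9 and 62.1 CPM in stably expanded libraries. De novo expanded library 3 lay within the pre-malignant range. The log2 fold change of de novo expanded over pre-malignant was 0.43 (-0.05 to 0.91, adjusted p = 0.474, limma). Without library 3 it was 0.64 (adjusted p = 0.0351, limma), under the 2-fold limit. In that fit 1.5% of all genes passed both limits, and the larger share passing the adjusted p-value alone was not counted. *Prdx2* (ENSMUSG00000005161.15, chr8:84969587-84974834) had 46.5, 64.4 and 59.6 CPM in pre-malignant, 84.1, 78.1 and 61.0 CPM in de novo expanded and 55.6, 68.0 and 82.1 CPM in stably expanded libraries. Its log2 fold change in the same comparison was 0.40 (0.02 to 0.79, adjusted p = 0.432, limma). *Prdx2* shares 181 bases with *Rnaseh2a* on the opposite strand (4693 reads against 8288 in all libraries), and the strand setting of the counting is not given in the sources used here.

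*Cat* (ENSMUSG00000027187.10, chr2:103453849-103485160) varied little, with 62.1, 61.5 and 69.1 CPM in pre-malignant, 66.9, 67.0 and 77.0 CPM in de novo expanded and 72.2, 69.2 and 66.8 CPM in stably expanded libraries. All its ranges overlapped. The 95% interval of its log2 fold change was -0.11 to 0.34 for stably expanded over pre-malignant, -0.12 to 0.42 for de novo expanded over pre-malignant and -0.27 to 0.25 between the leukemic groups.

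Leaving out *Gpx3*, stably expanded libraries were higher than pre-malignant ones for 8 of the 8 other genes tested, beside 50.5% of all genes. *Gpx3* was the 1 gene called, meaning that the adjusted p-value lay under 0.05 and the change reached 2-fold, where 2.75% of all 13968 genes were called, and nothing is read from this since the comparison chose it. Of the other 8, 1 (*Gsr*) passed the adjusted p-value alone, against 7.95% of all genes, and 2 (*Gsr* and *Txn1*) had groups that did not overlap, against 30.7%. Their median log2 fold change was 0.18, beside 0.00 over all. In the comparison of de novo expanded with pre-malignant libraries, 7 of 9 were higher (51.0% of all genes) and none was called, as was none of the 14195 genes tested (0%). Groups did not overlap for 2 of 9 (*Txn1* and *Txnrd1*), near the share of 19.1% over all genes. At an unadjusted p under 0.05, 2 of 9 (*Prdx2* and *Txnrd1*) and 1597 genes in all (11.3%) passed, edgeR called 0 and DESeq2 called 42 genes, none of the 9 among them. Between stably and de novo expanded libraries, *Gpx3* was the 1 gene called of 13758 (0.00727%), by which it had been chosen. The other 8 had adjusted p-values between 0.891 and 0.997, and their 95% intervals reached from -0.70 to 1.98 on the log2 scale.

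**Figure D4:**
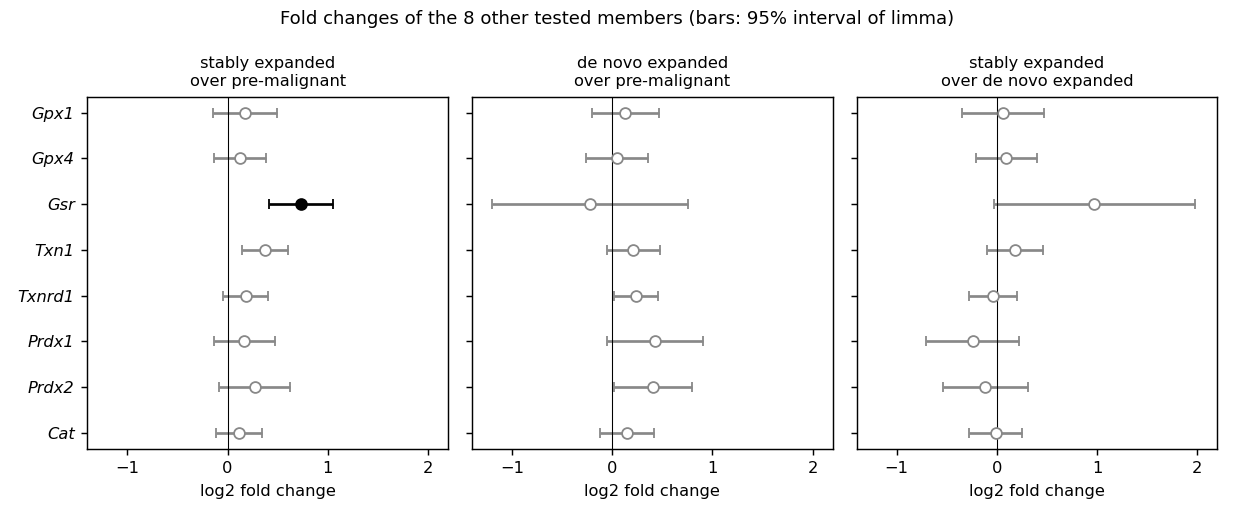
Log2 fold changes (horizontal axis) of the 8 tested genes other than *Gpx3* in the 3 comparisons, with 95% intervals of limma as bars and a filled point where the adjusted p-value was under 0.05. *Gsr* in stably expanded over pre-malignant (0.73) is the only filled point, and the widest intervals are those of *Gsr* in the comparisons with de novo expanded libraries.

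Around these genes, 77 others in 10 lists of antioxidant function were followed, of which 66 could be tested in stably expanded against pre-malignant libraries. Of these, 50 were higher and 16 lower, with a median log2 fold change of 0.21. The adjusted p-value was passed by 8 (12.1%, against 7.95% of all genes), all 8 higher in stably expanded libraries, and groups did not overlap for 24 (36.4%, against 30.7%). NADPH supply held 3 of the 8 among 7 tested genes, of which 4 were higher and 3 lower, the mitochondrial transhydrogenase *Nnt* among the latter without overlap (-0.41, adjusted p = 0.253). The 3 were the pentose phosphate genes *Pgd* (263, 295 and 309 CPM in pre-malignant against 521, 426 and 379 CPM in stably expanded libraries, log2 fold change 0.61, adjusted p = 0.0146), *G6pdx* (0.46, adjusted p = 0.0413) and *Taldo1* (0.43, adjusted p = 0.0468). *Pgd* and *G6pdx* encode the 2 dehydrogenases of this pathway that form NADPH, from which *Gsr* draws.

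The other 5 came from 3 lists. *Glrx*, a glutaredoxin that reduces protein disulfides with glutathione, had 33.8, 25.2 and 27.4 CPM in pre-malignant and 60.2, 45.7 and 45.4 CPM in stably expanded libraries (log2 fold change 0.81, adjusted p = 0.0165). *Mgst3*, a microsomal glutathione transferase, had 1.75, 2.81 and 2.30 CPM against 6.20, 4.39 and 7.23 CPM and was the 1 gene of the lists called at 2-fold (1.35, adjusted p = 0.0354). That call was lost in 1 fit of all 9 libraries and on leaving out any 1 library other than stably expanded library 2. The transferase *Gstm1* rose by 0.46 (adjusted p = 0.0213), and the selenoprotein genes *Selenom* and *Selenot* by 0.82 (0.0240) and 0.59 (0.0250). De novo expanded library 3 also stood within or above the stably expanded range in *Glrx* (61.7 CPM), *Pgd* (439 CPM), *Gstm1* (231 CPM), *Taldo1* (397 CPM), *Selenot* (135 CPM) and *Mgst3* (9.60 CPM), and below it in *G6pdx* (138 CPM) and *Selenom* (15.3 CPM). This was not particular to library 3 for *Mgst3* (7.01 and 6.24 CPM in libraries 1 and 2) and *Selenot* (126 CPM in library 1), which were within that range too. For *Selenom*, library 2 was within it (17.8 CPM).

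No gene passed in glutathione synthesis and turnover (5 higher and 2 lower of 7), in the NRF2 pathway (5 and 3 of 8), in selenoprotein synthesis (6 and 1 of 7), among the other peroxiredoxins (3 and 1 of 4) or among the superoxide dismutases (1 and 1 of 2). *Gclc*, the catalytic subunit of glutathione synthesis, was at 0.05 (adjusted p = 0.823) and *Nfe2l2*, which encodes NRF2, at 0.13 (0.591). *Sephs2*, which makes the selenium donor of selenoproteins such as *Gpx3*, was at 0.30 (0.0968).

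In de novo expanded against pre-malignant libraries none of 65 tested list genes passed, with 42 higher (beside 51.0% of all genes) and a median of 0.09. The smallest p-values were those of *Mgst3* (log2 fold change 1.72, adjusted p = 0.320), *Selenot* (0.55, 0.360), *Selenom* (0.65, 0.372) and the mitochondrial peroxiredoxin *Prdx3* (0.48, 0.399). Groups did not overlap for 9 of 65 (13.8%, against 19.1% of all genes). Between stably and de novo expanded libraries none of 65 passed either, with 42 higher (beside 49.6% of all genes) and a median of 0.05. Here *G6pdx* (0.40), *Selenok* (0.43), *Sephs2* (0.33) and the transketolase *Tkt* (0.40) had the smallest p-values, all at an adjusted p of 0.891, and groups did not overlap for 6 (9.23%, against 9.61%). Each group entered 2 of the 3 comparisons, so the counts are not independent of each other.

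**Figure D5:**
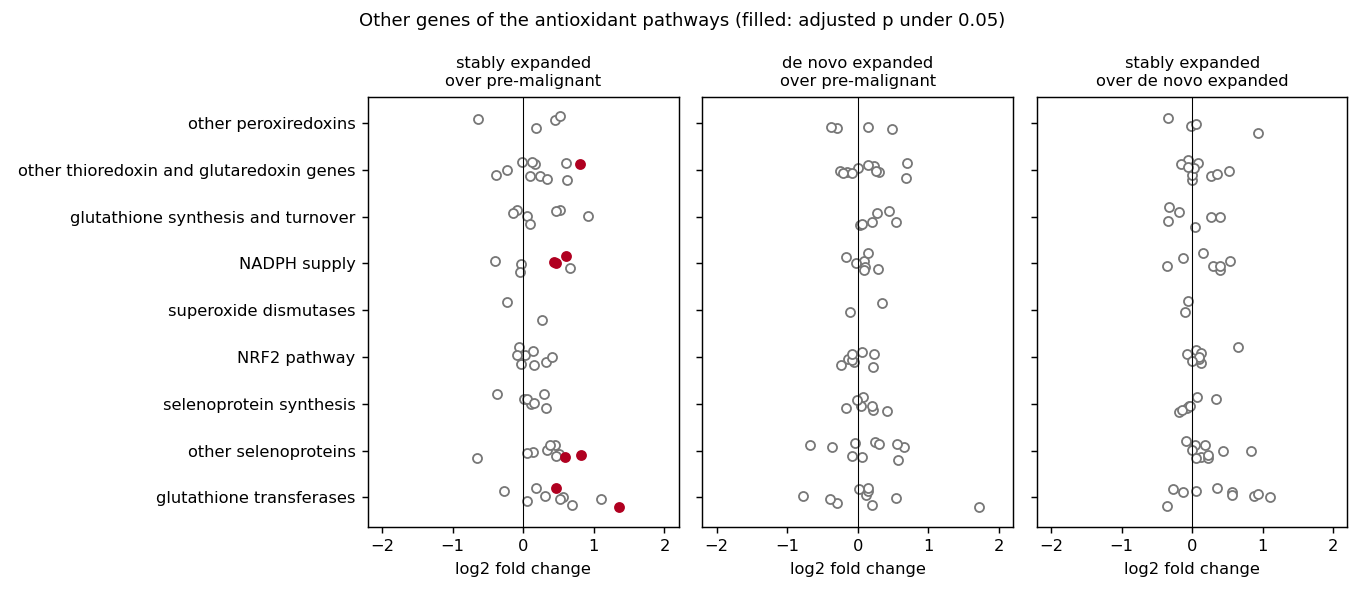
Log2 fold changes (horizontal axis) of the other antioxidant genes by list in the 3 comparisons, with 1 point per gene, filled in red where the adjusted p-value was under 0.05. The 8 filled points all lie to the right in stably expanded over pre-malignant, and the list of other glutathione peroxidases had no tested gene.

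The genes most like *Gpx3* over the 9 libraries, by Pearson correlation on log2(CPM + 1) among 9768 genes with a mean of at least 5 CPM, were *Smap1* (0.949), *Cul3* (0.939), *Gapt* (0.924), *1700123O20Rik* (0.918) and *Fuca1* (0.916). None approached its range. *Smap1* lay between 38.4 and 47.5 CPM in pre-malignant and de novo expanded libraries and between 49.3 and 53.9 CPM in stably expanded libraries, and *Gapt* between 32.4 and 53.6 and between 54.6 and 83.1 CPM. Of the other 8 genes described here, *Txn1* (0.722) and *Gsr* (0.676) were nearest to *Gpx3*, while *Prdx2* (0.01) and *Prdx1* (-0.10) were farthest. These values describe 9 points that share clones, mice and the sort.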

How the data were processed

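The authors converted reads with bcl2fastq and processed them with nf-core/rnaseq 1.4.2 on GRCm38.p6 with GENCODE release M25. The submitters' processing notes name Trim Galore 0.6.4, STAR 2.6.1d, featureCounts 1.6.4 and DESeq2. Whether molecular identifiers were used is not given in the sources used here. The deposited signal is a normalized count, for which the authors scaled read counts by the size factors of DESeq2, separately in each of 3 tables of 6 libraries. The tables also hold the authors' own log2 fold changes, statistics and p-values, which were not used.

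Whole reads, within 0.05 reads, were recovered for at least 99.99% of nonzero values, and CPM were computed from them. limma 3.58.1 (R 4.3.3, empirical Bayes trend) tested log2(normalized count + 1) within each table in genes with a mean of at least 10, two-sided, with Benjamini-Hochberg adjustment over all genes tested. Calls needed an adjusted p-value under 0.05 with a 2-fold change. The script was tested on simulated data. Alternatives were pseudocounts of 0.1 and 5, no filter or a mean of at least 50, quantile normalization, edgeR 4.0.16 and DESeq2 1.42.0 on recovered reads, 1 fit of all 9 libraries, no fold limit, and leaving out each library. The members and gene lists, written from general knowledge, were chosen with earlier results of these data known. Named list genes are those with an adjusted p-value under 0.05 (at most 8 per comparison), or else the 4 with the smallest p. *Prdx5*, *Msrb1*, *Mgst1*, *Mgst2*, *Gstt2*, *Prdx4*, *Gclc*, *Nfe2l2*, *Nnt*, *Pecam1*, *Ighm*, *Cd79b* and the single macrophage and granule genes were named after their values were seen. Promoter windows came from RefSeq, and Python 3.11.15 drew the figures. A further genetic change of the cells is not reported here.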

Additional observations from a re-analysis of the deposited data

How the results depend on the processing

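No paired analysis was possible because the columns of the tables carry no mouse or clone. In the comparisons with the stably expanded group the 1 gene called was *Gpx3*, which they had chosen, so nothing is read from its calls here. The counts of called genes among the 10 described were the same under every alternative, apart from the following. In stably expanded against pre-malignant, 2 passed without the fold limit (*Gpx3* and *Gsr*). In stably against de novo expanded, leaving out 1 library gave 0 to 2, with 0 without any 1 stably expanded library and 2 (*Gpx3* and *Gsr*) without de novo expanded library 3. Among the other antioxidant genes, stably expanded against pre-malignant gave 1 call (*Mgst3*), 2 without a filter (with *Gstt2*), 0 in 1 fit of all 9 libraries, 8 without the fold limit, and 0 to 2 when 1 library was left out: 0 without any library other than stably expanded library 2, and 2 without that one (*Mgst3* and, lower, *Prdx4*). De novo expanded against pre-malignant gave 1 with DESeq2 (*Mgst3*) and 0 to 2 when 1 library was left out, with 2 (*Mgst3* and, lower, *Mgst2*) without de novo expanded library 3. Stably against de novo expanded gave 0 to 4, with 4 (*Prdx5*, *Msrb1*, *Mgst1* and *Mgst2*) without that library. Without it, 1.5% of all genes were called in the former comparison and 3.69% in the latter. Over all genes, the 384 calls of stably expanded against pre-malignant became 9 in 1 fit of all 9 libraries and 206 to 452 with 1 library left out. The 0 calls of de novo expanded against pre-malignant became 214 without de novo expanded library 3, 42 with DESeq2 and 5 without a filter or in 1 fit of all libraries. The 1 call between the leukemic groups became 508 without that library, 29 with DESeq2, 2 without a filter, in 1 fit of all libraries or without de novo expanded library 1, and 0 without any 1 stably expanded library.

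The log2 fold change of *Gpx3* over de novo expanded libraries was 5.42 with a pseudocount of 5. With 1 library left out it ran from 6.02 to 6.54, and over pre-malignant libraries from 4.54 to 6.10. Leaving out 1 library turned the sign of small differences, none of which passed the adjusted p-value with the turned sign: de novo expanded over pre-malignant for *Gpx4* (-0.023 to 0.14) and *Gsr* (-0.76 to 0.16), and stably over de novo expanded for *Gpx1* (-0.056 to 0.23), *Prdx2* (-0.26 to 0.018), *Txnrd1* (-0.090 to 0.029) and *Cat* (-0.048 to 0.065). No other alternative turned a sign. The 12 reads of *Gpx3* in de novo expanded libraries limit any fold change against that group.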
